A study of Mus musculus with 12 samples.

Results

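Peroxisomes are organelles that shorten very long chain, branched and dicarboxylic fatty acids by β-oxidation and α-oxidation, and that release hydrogen peroxide which catalase removes. They hold no DNA, so every protein is imported, and the peroxins, the products of the Pex genes, build the membrane, carry proteins across it and divide the organelle. In adipose tissue, peroxisomes supply ether lipids and oxidize fatty acids, and they become more numerous in thermogenic adipocytes. The genes examined were 29 members of a fixed list, taken by symbol from the 23420 genes of the count table of mouse inguinal white adipose tissue (iWAT). The list holds 12 peroxins, 13 enzymes of lipid and peroxide metabolism, and 4 membrane proteins, and all 29 had counts and passed the filter on low counts.

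The counts came from 12 male C57BL/6 mice aged 10 weeks, with 3 mice in each of 4 groups. All mice carried HIF2a loxP/loxP alleles, the WT controls included. WT mice had no Cre, whereas HIF2α AKO mice also carried Adipoq-Cre, whose promoter is active in white, beige and brown adipocytes, so that Cre and the deletion cannot be told apart. Mice stayed at 30 °C for 1 week, the thermoneutral (TN) condition, or at 4 to 6 °C for 3 days, the cold condition, so that temperature and length of stay changed together. Libraries held between 22368316 and 35204631 counts on genes. Values per mouse are CPM, each gene's counts scaled to a common library size with the TMM correction for library composition, and are listed for replicates 1, 2 and 3 in that order. Fold changes are on the log2 scale from 1 edgeR quasi-likelihood model of all 4 groups over 15306 genes, with a standard error (SE). Temperature and genotype comparisons share mice, so their values are not independent. Adjusted p-values follow Benjamini and Hochberg and span the same genes, and a gene was called where the adjusted p was under 0.05. With 3 mice on each side, an exact permutation test (two-sided) cannot go below p = 0.1, the value that groups without overlap reach.

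Whether the tissue, temperature and genotype labels fit the counts was examined first. Adipoq, the adipocyte hormone adiponectin, lay between 899 and 2467 CPM in the 12 mice. Ucp1, the uncoupling protein of thermogenic fat, lay between 0.20 and 3.85 CPM at TN and between 2171 and 5897 CPM upon cold. Epas1, which encodes HIF2α, was not lower in the mice labelled HIF2α AKO, at 348 ± 53.8 CPM against 360 ± 76.8 in WT at TN and 826 ± 139 against 627 ± 101 upon cold (SD, n = 3 mice each). The table holds 1 count per gene, so the floxed part of Epas1 is not seen on its own, and genotypes are given as labelled. Among the members, TN WT replicate 2 was the lowest of its group for 26 genes, against 42.3% of all genes tested, and cold WT replicate 3 was the highest of its group for 28, against 40.2% of all genes. Cold HIF2α AKO replicate 1 was the highest of its group for 25 members and TN HIF2α AKO replicate 1 the lowest for 21. Calls that were lost when a single library was left out are given beside each gene.

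Upon cold, peroxisome genes of nearly every role were higher in iWAT of both genotypes. In WT mice 23 of the 29 members were called higher, against 15.6% of all genes tested, and all 29 log2 fold changes were positive. Their median was 1.09, a median fold of 2.13, whereas the median of all genes was -0.034. In HIF2α AKO mice 20 members were called higher, again against 15.6% of all genes, with a median log2 fold change of 0.89 against -0.051 for all genes. Pex26 and Acox3 were the members with a negative value there, at -0.053 and -0.027. Cold and TN values did not overlap, with cold above TN, for 25 members in WT mice, against 22.7% of all genes, and for 25 members in HIF2α AKO mice, against 24.9%. Averaged over both genotypes, cold was called higher for 26 members, against 24.8% of all genes, and Pex26, Abcd2 and Acox3 were the members not called. Both counts of members within a genotype changed when single libraries were left out. The WT count was 13 without TN WT replicate 2, 16 without cold WT replicate 3, 16 without TN WT replicate 1, and 8 without both TN WT replicate 2 and cold WT replicate 3, a choice made after the values were seen. Without that pair 24 members were called in HIF2α AKO mice, whose test shares 1 estimate of the spread with the WT groups. In HIF2α AKO mice 11 members were called when cold replicate 1 was left out, 11 when TN replicate 1 was, and 14 when TN replicate 3 was. The share of all genes called without these libraries was not counted. A loss particular to the members therefore cannot be told from a general one. Under the upper quartile scaling the counts were 21 and 19. Over all genes, those called higher went from 2389 to 1861 in WT and from 2381 to 2070 in HIF2α AKO mice. More genes were called lower under this scaling. The share of called genes that were higher thus moved from 73.3 to 42.6% in WT and from 57.5 to 42.4% in HIF2α AKO mice.

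**Figure D1:**
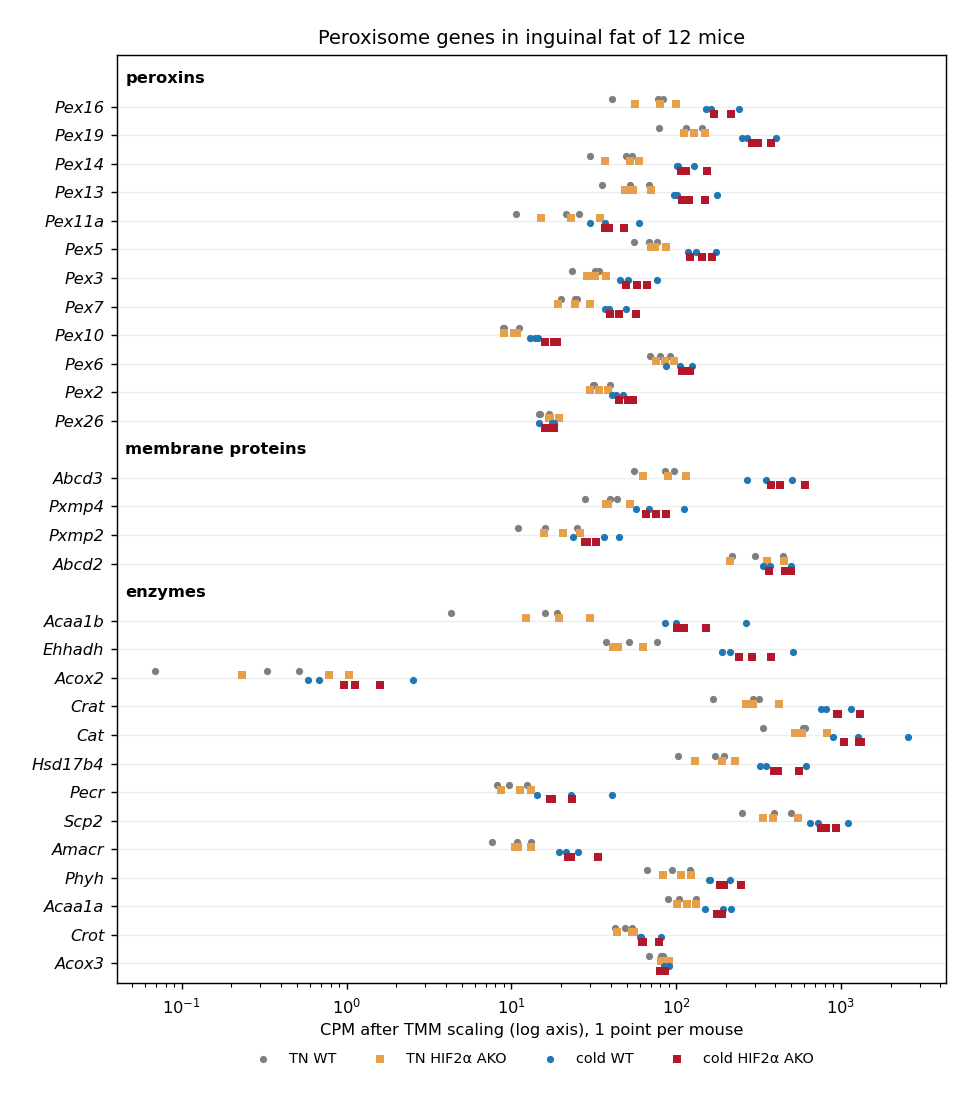
CPM of the 29 peroxisome genes on a log axis, with 1 point per mouse and the 4 groups in separate colours, ordered within peroxins, membrane proteins and enzymes by their cold response in WT mice. Cold points lie to the right of TN points without overlap for 25 members in each genotype, and the points of Pex26 and Abcd2 overlap in both.

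Transcripts of the genes that insert membrane proteins, the step on which the peroxisomal membrane depends, were called higher in both genotypes. Pex19 encodes the cytosolic chaperone that binds new membrane proteins, and Pex3 its docking site. CPM of Pex19 was 115, 79.1 and 144 in TN WT, 112, 149 and 129 in TN HIF2α AKO, 270.2, 253 and 401 in cold WT and 375, 316 and 287 in cold HIF2α AKO mice. Every cold mouse was above every TN mouse, with TN WT replicate 2 lowest and cold WT replicate 3 highest. Pex19 transcripts rose in cold mice, by a log2 fold change of 1.45 (SE 0.24, adjusted p = 0.00252) in WT and 1.33 (SE 0.23, adjusted p = 0.00301) in HIF2α AKO mice. CPM of Pex3 was 34.2, 23.2 and 32.4 in TN WT, 32.3, 37.6 and 28.98 in TN HIF2α AKO, 50.7, 45.5 and 76.03 in cold WT and 66.9, 57.6 and 49.4 in cold HIF2α AKO mice, and its cold and TN values did not overlap either. Upon cold Pex3 rose by a log2 fold change of 0.94 (SE 0.21, adjusted p = 0.0111) in WT and 0.81 (SE 0.21, adjusted p = 0.0177) in HIF2α AKO mice. The WT call of Pex3 was lost without TN WT replicate 2 (adjusted p = 0.0527) and the HIF2α AKO call without TN HIF2α AKO replicate 1 or 3 or cold HIF2α AKO replicate 1 (adjusted p from 0.0641 to 0.0786). Pex3 shares 249 exonic bases with Adat2 on the other strand, and the strand setting of the counting is not given in the sources used here, so reads of both genes cannot be told apart there. Pex16, which brings Pex3 to the membrane, stood at the top of the peroxins in WT mice together with Pex19. CPM of Pex16 was 77.3, 40.8 and 83.2 in TN WT, 56.6, 99.9 and 80.05 in TN HIF2α AKO, 162, 152 and 241 in cold WT and 216, 169.8 and 171 in cold HIF2α AKO mice. The cold values all lay above the TN values, and TN WT replicate 2 was the lowest mouse. Pex16 rose upon cold, with a log2 fold change of 1.46 (SE 0.29, adjusted p = 0.00639) in WT and 1.23 (SE 0.29, adjusted p = 0.012) in HIF2α AKO mice. Its HIF2α AKO call was lost without TN HIF2α AKO replicate 1 or cold HIF2α AKO replicate 1 (adjusted p from 0.0524 to 0.0538).

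The import receptors and the docking complex were likewise higher upon cold. Pex5 carries proteins with a C-terminal signal, among them most matrix enzymes. Pex7 carries the few with an N-terminal signal, such as Phyh and the thiolases encoded by Acaa1a and Acaa1b. CPM of Pex5 was 68.2, 55.2 and 76.1 in TN WT, 74.7, 86.3 and 70.5 in TN HIF2α AKO, 132, 118 and 174 in cold WT and 164, 143 and 122 in cold HIF2α AKO mice. No cold value fell to the TN range, and the lowest was that of cold WT replicate 2. Pex5 transcripts rose in cold mice, by a log2 fold change of 1.09 (SE 0.17, adjusted p = 0.0023) in WT and 0.89 (SE 0.17, adjusted p = 0.00498) in HIF2α AKO mice. Pex7 was the lowest peroxin per length at TN, at 2.86 ± 0.33 RPKM in TN WT (CPM per kilobase of transcript, SD, n = 3 mice). Its transcript of 8099 bases is the longest of the peroxins, and by mean CPM Pex10, Pex26 and Pex11a were lower in TN WT. CPM of Pex7 was 24.2, 20.1 and 25.1 in TN WT, 19.3, 29.96 and 24.2 in TN HIF2α AKO, 39.4, 37.3 and 49.9 in cold WT and 56.9, 39.6 and 44.7 in cold HIF2α AKO mice, with no overlap between the temperatures. Upon cold Pex7 rose by a log2 fold change of 0.87 (SE 0.19, adjusted p = 0.00922) in WT and 0.94 (SE 0.19, adjusted p = 0.00543) in HIF2α AKO mice. Pex14 and Pex13 form the site at which the loaded receptors dock. CPM of Pex14 was 49.6, 30.2 and 53.7 in TN WT, 37.05, 59.4 and 52.4 in TN HIF2α AKO, 102, 101 and 128 in cold WT and 153, 115 and 108 in cold HIF2α AKO mice, and the highest mouse was cold HIF2α AKO replicate 1. Pex14 rose upon cold, with a log2 fold change of 1.31 (SE 0.24, adjusted p = 0.00419) in WT and 1.34 (SE 0.24, adjusted p = 0.00304) in HIF2α AKO mice. CPM of Pex13 was 52.8, 35.3 and 68.3 in TN WT, 49.2, 70.6 and 55.1 in TN HIF2α AKO, 97.2, 101 and 178 in cold WT and 150.4, 119.9 and 109 in cold HIF2α AKO mice. Cold WT replicate 3 stood above the other 2 cold WT mice, and the temperatures did not overlap. Pex13 rose upon cold, with a log2 fold change of 1.27 (SE 0.28, adjusted p = 0.0109) in WT and 1.12 (SE 0.28, adjusted p = 0.0162) in HIF2α AKO mice. Its HIF2α AKO call was lost without TN HIF2α AKO replicate 1 or 3 or cold HIF2α AKO replicate 1 (adjusted p from 0.0549 to 0.0705).

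The peroxins that recycle the receptors had the 4 smallest log2 fold changes of the class in WT mice. Pex2 and Pex10 belong to the ubiquitin ligase that marks the receptors for export, Pex6 is an ATPase that pulls them out, and Pex26 anchors it. CPM of Pex10 was 8.91, 8.98 and 11.2 in TN WT, 8.999, 10.4 and 10.8 in TN HIF2α AKO, 12.9, 13.9 and 14.6 in cold WT and 18.9, 16.003 and 18.1 in cold HIF2α AKO mice. The cold values were above the TN values in both genotypes, and the 3 cold HIF2α AKO values were above the 3 cold WT values. Pex10 transcripts rose in cold mice, by a log2 fold change of 0.51 (SE 0.13, adjusted p = 0.0174) in WT and 0.81 (SE 0.13, adjusted p = 0.00155) in HIF2α AKO mice. The WT call of Pex10 was lost without TN WT replicate 1 or 2 or cold WT replicate 3 (adjusted p from 0.0643 to 0.0764). CPM of Pex2 was 31.8, 31.1 and 39.9 in TN WT, 30.03, 38.7 and 34.03 in TN HIF2α AKO, 43.5, 40.6 and 47.7 in cold WT and 54.4, 50.7 and 44.9 in cold HIF2α AKO mice, where cold WT replicate 2 lay just above TN WT replicate 3. Pex2 was called in HIF2α AKO mice, at 0.54 (SE 0.13, adjusted p = 0.0124), and not in WT mice, at 0.36 (SE 0.13, adjusted p = 0.0653). The HIF2α AKO call of Pex2 was lost without TN HIF2α AKO replicate 1 or cold HIF2α AKO replicate 1 (adjusted p from 0.0566 to 0.0596). CPM of Pex6 was 79.4, 69.5 and 91.4 in TN WT, 85.5, 97.2 and 75.5 in TN HIF2α AKO, 105, 87.2 and 125 in cold WT and 122, 119 and 109 in cold HIF2α AKO mice. In WT mice the values of Pex6 overlapped, since cold WT replicate 2 lay below TN WT replicate 3. For Pex6 the log2 fold change was 0.4001 (SE 0.15, adjusted p = 0.0721) in WT and 0.44 (SE 0.15, adjusted p = 0.0467) in HIF2α AKO mice, and the difference between the genotypes, tested as the interaction, was 0.039 (95% interval -0.42 to 0.49). The HIF2α AKO call of Pex6 was lost without TN HIF2α AKO replicate 1 or 3, TN WT replicate 1, cold HIF2α AKO replicate 1, 2 or 3 or cold WT replicate 1 (adjusted p from 0.0599 to 0.146). The Pex26 values spanned 14.8 to 19.6 CPM over all 12 mice and overlapped between the temperatures. For Pex26 the log2 fold change was 0.12 (95% interval -0.13 to 0.37) in WT and -0.053 (95% interval -0.299 to 0.19) in HIF2α AKO mice. Pex11a, a membrane-shaping protein of peroxisome proliferation, varied widely between mice. CPM of Pex11a was 21.5, 10.6 and 25.6 in TN WT, 15.1, 34.5 and 22.9 in TN HIF2α AKO, 37.1, 30.1 and 59.8 in cold WT and 48.03, 37.1 and 39.2 in cold HIF2α AKO mice. The cold values of both genotypes lay above the TN values of the same genotype, but cold WT replicate 2 was below TN HIF2α AKO replicate 2. Pex11a was called in WT mice, at 1.14 (SE 0.37, adjusted p = 0.048), and not in HIF2α AKO mice, at 0.78 (SE 0.36, adjusted p = 0.126). The WT call was lost without TN HIF2α AKO replicate 3, TN WT replicate 1 or 2, cold HIF2α AKO replicate 1, 2 or 3 or cold WT replicate 1 or 3 (adjusted p from 0.0579 to 0.198).

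Among the membrane proteins, Abcd3 stood apart from the other 3. Abcd3 and Abcd2 are transporters that bring acyl-CoA into the peroxisome, Abcd3 mainly branched and dicarboxylic chains and Abcd2 very long unsaturated ones. CPM of Abcd3 was 85.7, 55.8 and 97.5 in TN WT, 62.9, 115 and 89.3 in TN HIF2α AKO, 269, 349 and 508 in cold WT and 607, 377 and 425 in cold HIF2α AKO mice. The lowest cold mouse had more than 2 times the CPM of the highest TN mouse, and cold HIF2α AKO replicate 1 was highest. Abcd3 transcripts rose in cold mice, by a log2 fold change of 2.23 (SE 0.31, adjusted p = 0.00132) in WT and 2.398 (SE 0.32, adjusted p = 0.000599) in HIF2α AKO mice. The Abcd2 values lay between 212 and 453 CPM at TN and between 336 and 500.1 CPM upon cold, and they overlapped in both genotypes. For Abcd2 the log2 fold change was 0.32 (95% interval -0.34 to 0.99) in WT and 0.38 (95% interval -0.28 to 1.04) in HIF2α AKO mice. Per length, Abcd2 was the higher of the pair at TN, at 58.03 ± 20.4 RPKM against 22.8 ± 6.16 in WT mice, and Abcd3 the higher upon cold, at 107 ± 34.9 RPKM against 72.6 ± 15.7 (SD, n = 3 mice). Pxmp4 and Pxmp2 are small membrane proteins, and Pxmp2 forms a channel. CPM of Pxmp4 was 39.5, 27.9 and 43.97 in TN WT, 38.5, 52.3 and 37.6 in TN HIF2α AKO, 68.6, 56.8 and 111 in cold WT and 86.9, 75.6 and 65.6 in cold HIF2α AKO mice, with cold above TN in both genotypes. Pxmp4 rose upon cold, with a log2 fold change of 1.09 (SE 0.25, adjusted p = 0.0133) in WT and 0.83 (SE 0.25, adjusted p = 0.0337) in HIF2α AKO mice. The WT call of Pxmp4 was lost without TN WT replicate 2 (adjusted p = 0.0611) and the HIF2α AKO call without TN HIF2α AKO replicate 1 or 3 or cold HIF2α AKO replicate 1 or 2 (adjusted p from 0.0717 to 0.122). CPM of Pxmp2 was 15.99, 11.001 and 25.04 in TN WT, 15.8, 26.3 and 20.6 in TN HIF2α AKO, 36.5, 23.6 and 44.97 in cold WT and 28.9, 32.8 and 27.9 in cold HIF2α AKO mice. Cold WT replicate 2 lay below TN WT replicate 3, and cold HIF2α AKO replicate 3 lay just above TN HIF2α AKO replicate 2. Pxmp2 was called in WT mice, at 1.01 (SE 0.302, adjusted p = 0.0368), and not in HIF2α AKO mice, at 0.51 (SE 0.301, adjusted p = 0.211). For Pxmp2 the WT call was lost without TN HIF2α AKO replicate 3, TN WT replicate 1 or 2, cold HIF2α AKO replicate 2 or 3 or cold WT replicate 1 or 3 (adjusted p from 0.0506 to 0.148).

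The enzymes of the β-oxidation spiral held the largest log2 fold changes of the list, those of Acaa1b and Ehhadh. Ehhadh encodes the bifunctional enzyme for straight and dicarboxylic chains and Hsd17b4 the one for branched and very long chains, and each carries out the hydration and dehydrogenation steps. CPM of Ehhadh was 52.1, 37.7 and 76.1 in TN WT, 63.2, 44.7 and 41.5 in TN HIF2α AKO, 211, 190.1 and 509.8 in cold WT and 377, 290.1 and 239 in cold HIF2α AKO mice. The lowest cold mouse was above 2 times the highest TN mouse, and cold WT replicate 3 was above 2 times both other cold WT mice. Ehhadh transcripts rose in cold mice, by a log2 fold change of 2.46 (SE 0.396, adjusted p = 0.00244) in WT and 2.601 (SE 0.398, adjusted p = 0.0014) in HIF2α AKO mice. CPM of Hsd17b4 was 172, 103 and 195 in TN WT, 129.8, 229 and 189 in TN HIF2α AKO, 325, 349 and 612 in cold WT and 559, 416 and 393 in cold HIF2α AKO mice. Cold and TN did not overlap, and cold WT replicate 3 was again highest. Upon cold Hsd17b4 rose by a log2 fold change of 1.45 (SE 0.31, adjusted p = 0.00954) in WT and 1.32 (SE 0.31, adjusted p = 0.0127) in HIF2α AKO mice. Its HIF2α AKO call was lost without TN HIF2α AKO replicate 1 or cold HIF2α AKO replicate 1 (adjusted p from 0.057 to 0.0572).

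The last step of the spiral is the thiolase reaction, for which the mouse has the near-identical genes Acaa1a and Acaa1b. Their coding sequences of 1272 bases are 96.5% identical in the GENCODE M21 transcripts, and 37.9% of all stretches of 50 bases in the Acaa1b coding sequence also occur in Acaa1a. Reads from shared stretches cannot be assigned to 1 of the genes, so the split of counts between the genes is uncertain. The stretch shown here is the 60 bases, coding bases 460 to 519 of both, in which the genes differ most often, at 11 positions, and it is shown because reads across it can tell the genes apart. It lies within a coding exon of each gene on GRCm38, on the plus strand at chr9:119346483-119346542 for Acaa1a and on the minus strand at chr9:119151842-119151901 for Acaa1b. Capitals mark the bases that differ.
Acaa1a: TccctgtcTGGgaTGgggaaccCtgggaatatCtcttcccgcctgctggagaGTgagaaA
Acaa1b: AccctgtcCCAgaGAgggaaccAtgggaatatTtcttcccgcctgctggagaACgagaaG
Acaa1a also shares 290 exonic bases with Myd88, and Acaa1b 224 with Dlec1, each on the other strand.

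The counts assigned to each gene nevertheless moved by different amounts. CPM of Acaa1b was 15.99, 4.32 and 18.9 in TN WT, 12.3, 29.9 and 19.6 in TN HIF2α AKO, 99.3, 85.7 and 265 in cold WT and 152, 112 and 101 in cold HIF2α AKO mice. TN WT replicate 2 was lowest and cold WT replicate 3 highest by a wide margin, and no cold value was in the TN range. Acaa1b rose upon cold, with a log2 fold change of 3.52 (SE 0.59, adjusted p = 0.00291) in WT and 2.56 (SE 0.57, adjusted p = 0.00945) in HIF2α AKO mice, and 2.41 in WT mice without both libraries that stood apart. CPM of Acaa1a was 104, 89.6 and 132 in TN WT, 101, 133 and 116 in TN HIF2α AKO, 191, 150.4 and 214 in cold WT and 191, 177 and 178 in cold HIF2α AKO mice, also without overlap between the temperatures. Acaa1a transcripts rose in cold mice, by a log2 fold change of 0.77 (SE 0.17, adjusted p = 0.00938) in WT and 0.64 (SE 0.17, adjusted p = 0.018) in HIF2α AKO mice. The HIF2α AKO call of Acaa1a was lost without TN HIF2α AKO replicate 1 or 3 or cold HIF2α AKO replicate 1 (adjusted p from 0.0548 to 0.0785). Per length, Acaa1b lay at 7.74 ± 4.57 RPKM against 61.6 ± 12.3 of Acaa1a in TN WT mice, and at 88.9 ± 59.2 against 105 ± 18.2 in cold WT mice (SD, n = 3 mice). Scp2 encodes both the thiolase of branched chains and a sterol carrier, and was among the highest members. CPM of Scp2 was 395, 250.3 and 496 in TN WT, 338, 545 and 389 in TN HIF2α AKO, 729, 648 and 1097 in cold WT and 939, 809 and 755 in cold HIF2α AKO mice. Each cold mouse was above each TN mouse of both genotypes. Upon cold Scp2 rose by a log2 fold change of 1.12 (SE 0.28, adjusted p = 0.0181) in WT and 0.98 (SE 0.28, adjusted p = 0.0268) in HIF2α AKO mice. The WT call of Scp2 was lost without TN WT replicate 1 or 2 or cold WT replicate 3 (adjusted p from 0.0536 to 0.0769) and the HIF2α AKO call without TN HIF2α AKO replicate 1 or 3 or cold HIF2α AKO replicate 1 or 2 (adjusted p from 0.0559 to 0.107).

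The acyl-CoA oxidases of the list, which begin the spiral for branched chains and bile acid intermediates, were not called in either genotype. The Acox2 values were at most 2.53 CPM, with the lowest at 0.069 CPM in TN WT replicate 2. Acox2 had between 2 and 63 counts per library, so its folds rest on few counts. For Acox2 the log2 fold change was 2.05 (95% interval 0.44 to 3.66) in WT and 0.82 (95% interval -0.69 to 2.33) in HIF2α AKO mice. Acox3 lay between 68.7 and 90.9 CPM in all 12 mice, and its log2 fold change was 0.18 (95% interval -0.016 to 0.38) in WT and -0.027 (95% interval -0.22 to 0.17) in HIF2α AKO mice. The interval in WT mice reaches 0.38, and an exonic overlap of 700 bases with 4931431C16Rik on the other strand applies to Acox3. The enzymes that prepare branched chains were called higher in both genotypes. Amacr, the racemase that turns methyl-branched chains into the form the spiral accepts, had CPM of 10.9, 7.61 and 13.1 in TN WT, 10.6, 13.1 and 10.9 in TN HIF2α AKO, 21.5, 19.4 and 25.5 in cold WT and 33.8, 22.2 and 23.2 in cold HIF2α AKO mice. Phyh, the hydroxylase of phytanic acid α-oxidation, had CPM of 94.2, 66.7 and 121 in TN WT, 82.8, 122 and 107 in TN HIF2α AKO, 159, 160.2 and 211 in cold WT and 246, 195 and 184 in cold HIF2α AKO mice. For both genes cold was above TN in every mouse, and cold HIF2α AKO replicate 1 was highest. Amacr transcripts rose in cold mice, by a log2 fold change of 1.07 (SE 0.22, adjusted p = 0.00717) in WT and 1.19 (SE 0.22, adjusted p = 0.00348) in HIF2α AKO mice. Phyh rose as well, by 0.91 (SE 0.22, adjusted p = 0.0166) and 1.0003 (SE 0.22, adjusted p = 0.00967) in the same order. For Phyh the WT call was lost without TN WT replicate 1 or 2 or cold WT replicate 3 (adjusted p from 0.053 to 0.0707).

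The carnitine acyltransferases hand the shortened chains to mitochondria. Crat, which makes acetylcarnitine in peroxisomes and mitochondria, had CPM of 293, 167 and 317 in TN WT, 266, 418 and 293 in TN HIF2α AKO, 811, 761 and 1153 in cold WT and 1301, 959 and 943 in cold HIF2α AKO mice. The lowest cold mouse was well above the highest TN mouse, and the highest was cold HIF2α AKO replicate 1. Upon cold Crat rose by a log2 fold change of 1.81 (SE 0.28, adjusted p = 0.00207) in WT and 1.71 (SE 0.28, adjusted p = 0.00186) in HIF2α AKO mice. In cold HIF2α AKO replicate 1 and in TN HIF2α AKO replicate 2, the highest mice for Crat at their temperatures, 12 listed skeletal muscle genes summed to 1344 and 1632 CPM, against 37.4 to 113 CPM in the other 10 mice, and the part of muscle transcripts in the members' values was not tested. Crat also shares 59 exonic bases with Dolpp1 on the other strand. Crot, which acts on medium chains, had CPM of 48.9, 42.5 and 54.2 in TN WT, 44.1, 55.4 and 54.3 in TN HIF2α AKO, 60.7, 61.5 and 81.1 in cold WT and 78.9, 61.7 and 63.3 in cold HIF2α AKO mice. Its cold values lay above the TN values by small margins in each genotype. Crot was called in WT mice, at 0.48 (SE 0.15, adjusted p = 0.0437), and not in HIF2α AKO mice, at 0.41 (SE 0.15, adjusted p = 0.0651). For Crot the WT call was lost without TN HIF2α AKO replicate 2 or 3, TN WT replicate 1 or 2, cold HIF2α AKO replicate 2 or 3 or cold WT replicate 2 or 3 (adjusted p from 0.0507 to 0.174). Pecr reduces enoyl-CoA, and its CPM was 9.65, 8.19 and 12.4 in TN WT, 11.3, 13.3 and 8.69 in TN HIF2α AKO, 23.1, 14.4 and 40.8 in cold WT and 23.3, 17.7 and 17.2 in cold HIF2α AKO mice. Cold WT replicate 3 stood far above all other mice. For Pecr the log2 fold change was 1.37 (SE 0.33, adjusted p = 0.015) in WT and 0.81 (SE 0.33, adjusted p = 0.0839) in HIF2α AKO mice. The WT call of Pecr was lost without TN WT replicate 1 or 2 or cold WT replicate 3 (adjusted p from 0.0532 to 0.0681), and its WT value was 0.896 without cold WT replicate 3.

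Catalase, which breaks down the hydrogen peroxide that the oxidases release, was the highest member per length in every group. CPM of Cat was 604, 336 and 592 in TN WT, 526, 828 and 579.5 in TN HIF2α AKO, 1262, 896 and 2554 in cold WT and 1323, 1281 and 1041 in cold HIF2α AKO mice. Cold values were above TN values in both genotypes, and cold WT replicate 3 reached nearly 2 times the next highest mouse. For Cat the log2 fold change was 1.62 (SE 0.37, adjusted p = 0.0123) in WT and 0.91 (SE 0.36, adjusted p = 0.0795) in HIF2α AKO mice. Without cold WT replicate 3 the WT value was 1.08, with an adjusted p of 0.0415. The WT call was lost without TN WT replicate 2 (adjusted p = 0.055), at 1.38. With both libraries left out, the WT value was 0.85 with an adjusted p of 0.0936. Erythroid markers were listed because those cells are rich in catalase. They summed to 57.6 CPM in cold WT replicate 3 and to at most 30.6 CPM in any other mouse. The part of erythroid transcripts in the values of Cat was not tested.

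**Figure D2:**
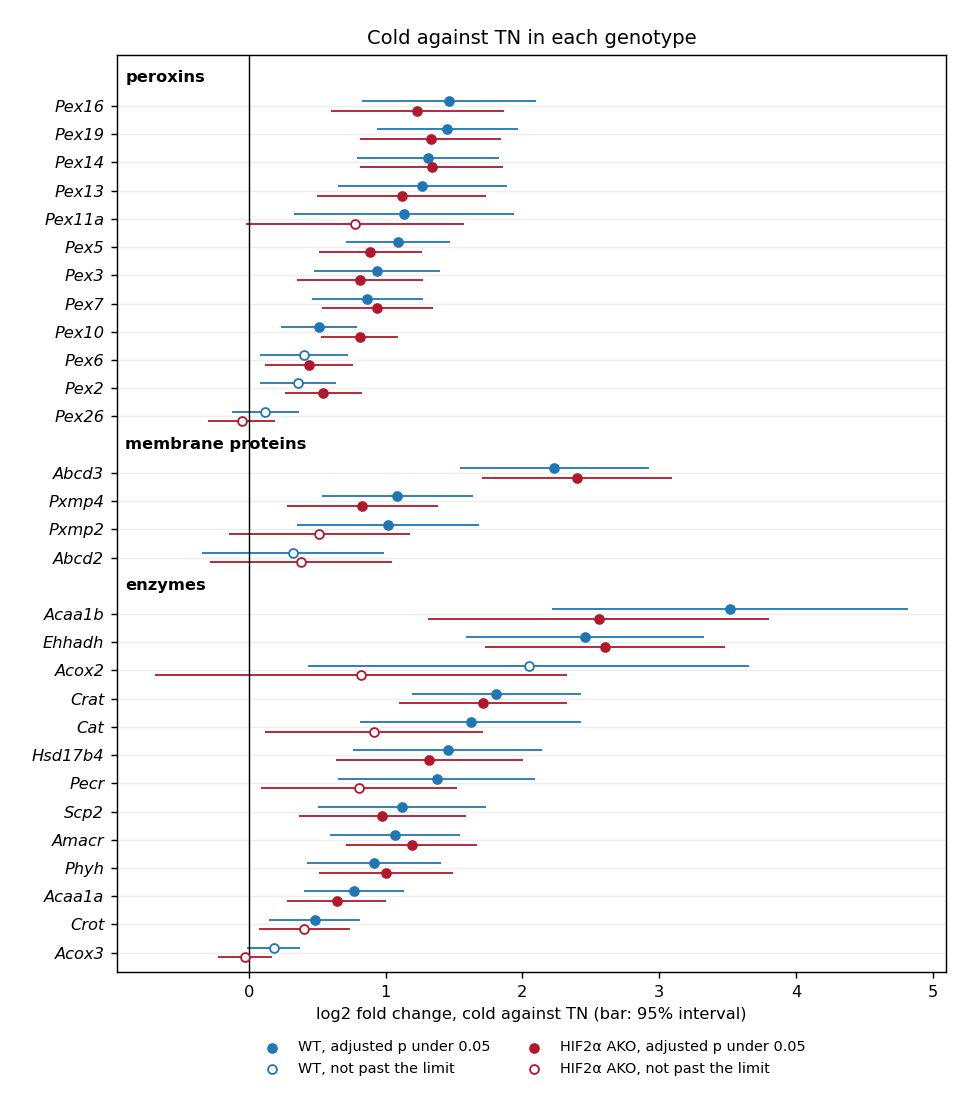
Log2 fold change upon cold of each member in WT and HIF2α AKO mice, with 95% intervals; filled points had an adjusted p under 0.05 and open points did not. The largest values are those of Acaa1b, Ehhadh and Abcd3, and the intervals of WT and HIF2α AKO overlap for all 29 members.

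The members that remained past the limit in WT mice without both TN WT replicate 2 and cold WT replicate 3 were 4 peroxins, 1 transporter and 3 enzymes. Pex16, Pex19, Pex5 and Pex14 had log2 fold changes of 0.97, 1.02, 0.79 and 0.98 there. Abcd3 had 1.75, Acaa1b 2.41, Ehhadh 1.65 and Crat 1.36. Over all members 28 of 29 log2 fold changes stayed positive, with a median of 0.63, and Abcd2 was the exception at -0.078. Each of these 8 genes was also called in HIF2α AKO mice, whose own 6 libraries do not include the pair.

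**Figure D3:**
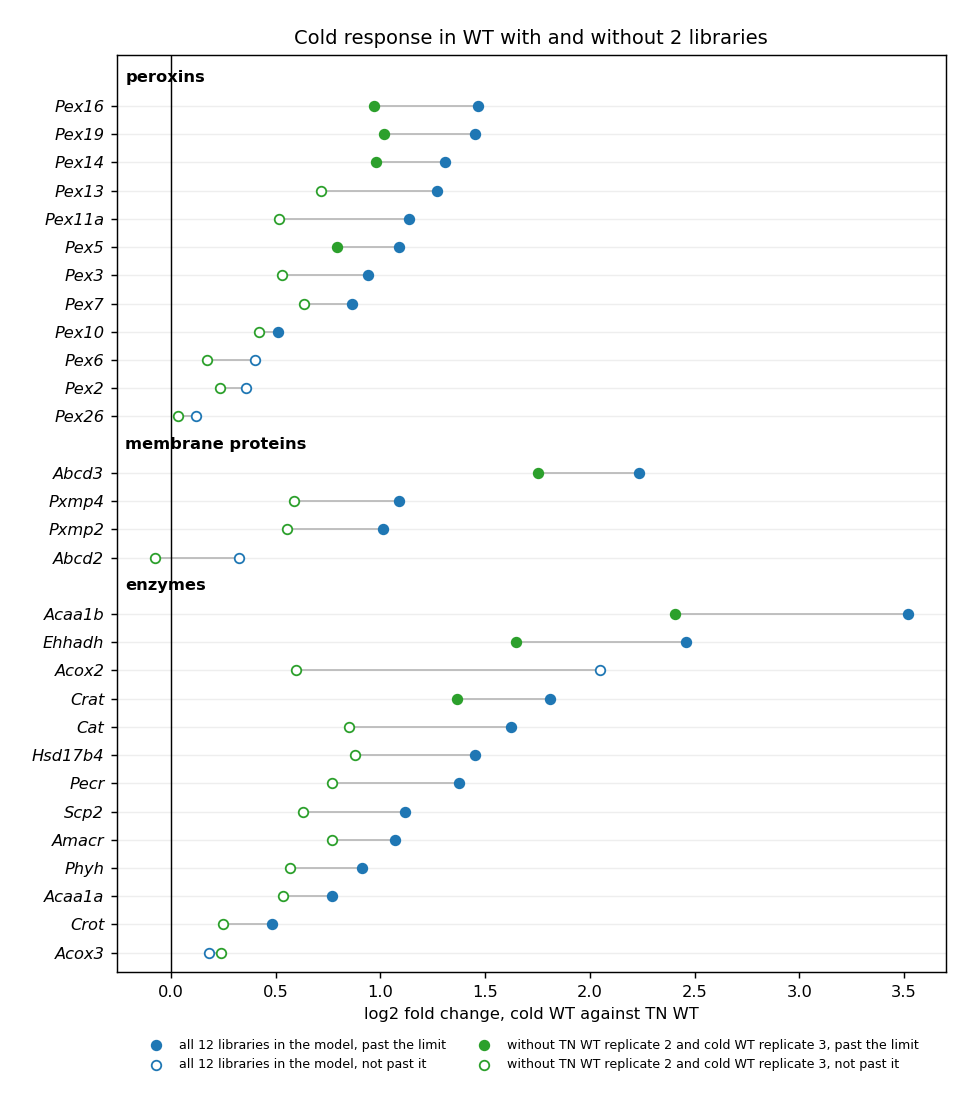
Log2 fold change of each member in cold WT against TN WT mice, with all libraries and without TN WT replicate 2 and cold WT replicate 3, where filled points had an adjusted p under 0.05. Values without the pair are smaller for 28 members, and 8 remain past the limit.

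Peroxins and enzymes were then compared as classes. In WT mice 9 of 12 peroxins and 11 of 13 enzymes were called higher, against 15.6% of all genes. Their medians were 1.01 and 1.37, against -0.034 for all genes. The highest values were 1.46 for the peroxins and 3.52 for the enzymes. In HIF2α AKO mice the counts were 10 of 12 and 8 of 13, again against 15.6% of all genes. The medians there were 0.85 and 0.98, against -0.051 for all genes. The 4 membrane proteins had medians of 1.05 and 0.67, with 3 and 2 called. A score per mouse, the mean log2 CPM of a class after centring each gene over the 12 mice, showed the order within the mice. The peroxin score lay between -0.88 and -0.13 at TN and between 0.20 and 0.70 upon cold, and the enzyme score between -1.31 and -0.22 at TN and between 0.28 and 1.17 upon cold. Neither score overlapped between the temperatures. The enzyme score minus the peroxin score was -0.26 ± 0.15 in TN WT, -0.14 ± 0.054 in TN HIF2α AKO, 0.24 ± 0.21 in cold WT and 0.17 ± 0.059 in cold HIF2α AKO mice (SD, n = 3 mice each). It was negative in all 6 TN mice and positive in all 6 cold mice. This difference rested largely on a few enzymes. Without Acaa1b, Ehhadh and Acox2, a choice made after the values were seen, it lay between -0.0897 and -0.0197 in the TN mice and between -0.0164 and 0.171 in the cold mice, and it was negative in cold WT replicate 2 and cold HIF2α AKO replicate 3. TN WT replicate 2 had the lowest and cold WT replicate 3 the highest score of both classes. Without both of these libraries the medians in WT were 0.58 for the peroxins and 0.77 for the enzymes.

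**Figure D4:**
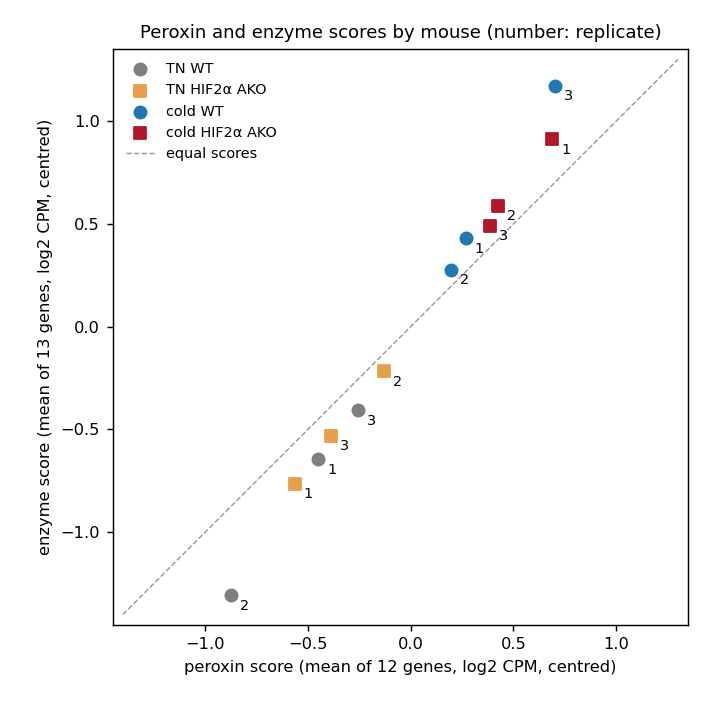
Enzyme score against peroxin score for the 12 mice, both as mean centred log2 CPM, with replicate numbers and a dashed line of equal scores. The TN mice lie below the line and the cold mice above it, and TN WT replicate 2 and cold WT replicate 3 form both ends.

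In amount per length, the transcripts of the list were dominated by few enzymes. The RPKM of all 29 members summed to 998 ± 271 in TN WT, 1152 ± 246 in TN HIF2α AKO, 2536 ± 888 in cold WT and 2505 ± 352 in cold HIF2α AKO mice (SD, n = 3 mice each). Peroxins made up 220.4 ± 53.1 of this sum in TN WT and 489 ± 114 in cold WT, and enzymes 667 ± 184 and 1805 ± 708. Cat took 19.5% ± 1.94 of the sum in TN WT and 22.6% ± 4.76 in cold WT mice, but 21.3% ± 1.07 in TN HIF2α AKO and 18.6% ± 1.504 in cold HIF2α AKO mice. Scp2, the next, took 14.3% ± 0.883 and 12.5% ± 0.673 in WT and 13.9% ± 0.598 and 12.6% ± 0.325 in HIF2α AKO mice. The share of Crat was 6.71% ± 0.491 in TN WT and 9.57% ± 1.001 in cold WT, that of Abcd3 2.29% ± 0.0192 and 4.31% ± 0.855, and that of Acaa1b 0.721% ± 0.309 and 3.27% ± 0.998. In HIF2α AKO mice the shares went from 7.35% ± 0.363 to 11.1% ± 0.683 for Crat, from 2.19% ± 0.232 to 5.33% ± 0.783 for Abcd3 and from 1.03% ± 0.234 to 2.85% ± 0.22 for Acaa1b. The order of levels at TN ran from Cat, at 195 ± 57.998 RPKM in TN WT, over Scp2 at 144 ± 46.7, Crat at 67.6 ± 21.1 and Phyh at 65.4 ± 18.9, and these neighbours differed by less than the larger SD of each pair except Scp2 and Crat. Pex16 led the peroxins, at 48.2 ± 16.5 RPKM in TN WT and 133 ± 34.97 in cold WT, followed by Pex19 at 39.6 ± 11.4 and 108 ± 28.6, within the SD of Pex16. The lowest members per length in TN WT were Acox2, at 0.104 ± 0.0767 RPKM, Pex7 and Pex26, at 3.79 ± 0.299.

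The summed CPM of the listed adipocyte markers moved with the same libraries. The 7 listed adipocyte markers summed to between 4564 and 11369 CPM in TN WT, 6824 and 12451 in TN HIF2α AKO, 15057 and 29179 in cold WT and 18291 and 22566 CPM in cold HIF2α AKO mice. TN WT replicate 2 had the lowest and cold WT replicate 3 the highest sum. Upon cold, 3 of the 7 markers were called higher in WT mice and 1 of 7 in HIF2α AKO mice, against 15.6% of all genes in each. None of the 7 was at 0 in any library. Fabp4 held the most counts of the 7, with 2526606 over all libraries, and was called in both genotypes. Its log2 fold change was 1.73 in WT and 1.58 in HIF2α AKO mice. Cidec and Retn were called in WT mice only, and Adipoq, Plin1, Lep and Lipe in neither genotype. The 7 lymphocyte markers summed to between 1131 and 1892 CPM in TN WT and 586 and 1082 CPM in cold WT, and to between 1182 and 1921 CPM in TN HIF2α AKO and 648 and 997 CPM in cold HIF2α AKO mice, and 1 of 7 was called lower in WT, against 5.68% of all genes, and 3 of 7 in HIF2α AKO mice, against 11.5%. The skeletal muscle markers were high in cold HIF2α AKO replicate 1 and TN HIF2α AKO replicate 2, each the highest mouse of its group for 25 members, and 0 of the 11 tested were called in either genotype by edgeR, with 0 at an unadjusted p under 0.05. In bulk tissue, fewer cells of a type and less RNA per cell cannot be told apart, and the part of a shift in cell types in the members' values was not tested. All 7 brown and beige adipocyte markers were called higher in both genotypes, with a median log2 fold change of 5.58 in WT and 5.84 in HIF2α AKO mice.

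Other genes of the organelle were read from lists that do not overlap the members. Their counts stand against 15.6% of all genes called higher in each genotype. The share called lower was 5.68% in WT and 11.5% in HIF2α AKO mice. Of 24 other peroxisomal lipid enzymes tested, 19 were called higher in WT and 19 in HIF2α AKO mice, with medians of 1.36 and 1.32. Slc27a2, an acyl-CoA synthetase for very long chains, had a log2 fold change of 7.01 in WT and 7.599 in HIF2α AKO mice, and Acot4, a thioesterase, of 2.81 in WT and 2.37 in HIF2α AKO mice. Slc25a17, a cofactor carrier of the peroxisomal membrane, had 1.54 in WT and 1.95 in HIF2α AKO mice. The fission and contact list had 2 of 7 called higher in WT and 3 in HIF2α AKO mice, among them Mff, the receptor of the fission GTPase, with 0.595 in WT and 0.64 in HIF2α AKO mice. Ether lipid synthesis was divided, with 2 of 5 genes called higher and 1 lower in each genotype. Gnpat, the acyltransferase that begins the pathway inside peroxisomes, had 0.96 in WT and 0.72 in HIF2α AKO mice, while Far1, the reductase that supplies fatty alcohol, had -0.58 in WT and -0.56 in HIF2α AKO mice. Of 10 other oxidases and antioxidants, 4 were called higher and 1 lower in each genotype, with Ephx2, the soluble epoxide hydrolase, at 2.73 in WT and 2.24 in HIF2α AKO mice. Among 10 transcription factors and coactivators of lipid oxidation, 8 were called higher in WT and 7 in HIF2α AKO mice, and Ppargc1a had 2.56 in WT and 2.95 in HIF2α AKO mice. For scale, 17 of 18 genes of mitochondrial fatty acid oxidation were called higher in each genotype, with medians of 2.12 and 2.05, above the peroxisomal medians in the same mice.

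PPAR receptors are known regulators of peroxisomal lipid enzymes, so the promoter windows were read for the element that they bind. Windows from RefSeq (GRCm38.p6), 250 bases before to 50 bases after the start, were at hand for 22 of the 29 members. The element, DR1, is a pair of AGGTCA half-sites in the same orientation with any 1 base between, and both strands were searched. A match with at most 2 mismatches in the 12 letters was found for 2 of 22 members, Cat and Acox2 (9.09%), against 4.40% of 27025 genes with a window, and with at most 1 mismatch for 0 members against 0.644% of genes. In Cat, which rose in WT mice, the match lies 197 bases before the start on the minus strand. It is shown in capitals with 20 bases on each side, and the whole stretch shown lies at chr2:103485325-103485377 of GRCm38.p6.
Cat: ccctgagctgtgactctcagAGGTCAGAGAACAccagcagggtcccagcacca
The core of the HIF-binding element, ACGTG or GCGTG on either strand, was present in 12 of the 22 members (54.5%), against 46.7% of all genes. These are matches of letters in short windows and say nothing about binding, and elements outside the windows were not searched.

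Whether the loss of HIF2α changed the members was asked at each temperature. In cold mice 0 of 29 members were called between HIF2α AKO and WT by edgeR, against 0.00653% of all genes (1 gene), and DESeq2 and limma voom also called 0. At an unadjusted p under 0.05 stood 1 member by each tool, against 2.95% of all genes by edgeR, 2.81% by DESeq2 and 7.69% by limma voom. The median log2 fold change was 0.013, with 19 members positive and 10 negative. The peroxins had a median of 0.058, with 11 of 12 positive, and the enzymes a median of -0.0077, with 6 of 13 positive. Both medians changed sign with single libraries left out, ranging from -0.020 to 0.29 for the peroxins and from -0.10 to 0.37 for the enzymes. Pex10 was the member past the unadjusted limit, at 0.36 (95% interval 0.078 to 0.63), and the 1 member whose genotypes did not overlap, against 7.53% of all genes. Its cold values were 12.9, 13.9 and 14.6 CPM in WT and 18.9, 16.003 and 18.1 CPM in HIF2α AKO mice. The unadjusted p of Pex10 was 0.0166 and the adjusted p 1 by edgeR.

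The largest differences in cold were those of Pecr and Cat, which were negative and rested on 1 library. The log2 fold change of HIF2α AKO against WT was -0.43 (95% interval -1.13 to 0.28) for Pecr and -0.37 (95% interval -1.16 to 0.42) for Cat. Without cold WT replicate 3, the highest mouse for both genes, the values were 0.049 and 0.17. Abcd3 and Ehhadh, which rose strongly upon cold, differed between the genotypes by 0.32 (95% interval -0.34 to 0.98) and -0.0077 (95% interval -0.83 to 0.82). The narrowest interval was that of Acox3, at -0.071 (95% interval -0.27 to 0.13).

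The TN comparison shares no mice with the cold comparison. At TN the members again showed no call between the genotypes, with 0 of 29 by edgeR, DESeq2 and limma voom against 0.00653% of all genes by edgeR. At an unadjusted p under 0.05 stood 0 members by edgeR and DESeq2 and 2 by limma voom, against 2.91%, 2.89% and 9.62% of all genes. The median log2 fold change was 0.16, and 28 of 29 values were positive, with Ehhadh the exception at -0.15 (95% interval -0.98 to 0.68). TN WT replicate 2, the lowest mouse of its group for 26 members, lay in the WT group. The medians at TN ranged from -0.0019 to 0.29 for the peroxins and from -0.0078 to 0.37 for the enzymes when libraries were left out in turn. The largest values were those of Acox2, at 1.17 (95% interval -0.47 to 2.81), Acaa1b, at 0.66 (95% interval -0.55 to 1.86), and Cat, at 0.34 (95% interval -0.46 to 1.13). Pex26 was the 1 member without overlap, against 7.69% of all genes, with 14.8, 14.8 and 16.9 CPM in WT and 19.6, 17.02 and 17.1 CPM in HIF2α AKO mice and a log2 fold change of 0.21 (95% interval -0.039 to 0.45). Averaged over both temperatures, 0 members were called by any of the 3 tools, against 0.00653% of all genes by edgeR, and at an unadjusted p under 0.05 stood 1 member by edgeR, Pex10, 1 by DESeq2 and 3 by limma voom, against 3.64%, 3.57% and 12.3% of all genes. The 3 largest averaged values were those of Acox2, at 0.55 (95% interval -0.54 to 1.65), Crat, at 0.28 (95% interval -0.14 to 0.704), and Abcd3, at 0.24 (95% interval -0.22 to 0.71).

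**Figure D5:**
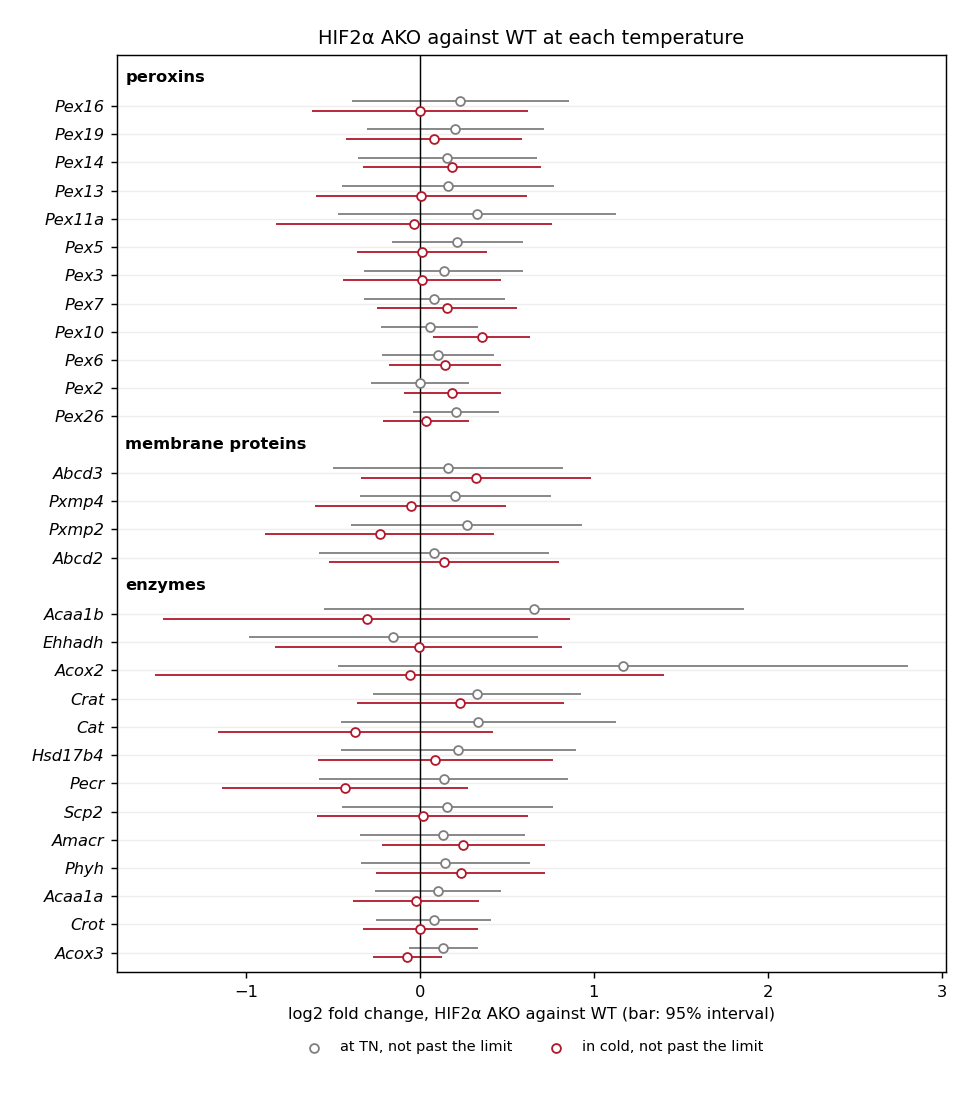
Log2 fold change of HIF2α AKO against WT for each member at TN and upon cold, with 95% intervals; open points had an adjusted p of 0.05 or more, which holds for all 29 members at both temperatures. The intervals include 0 except for Pex10 in cold, and they are widest for Acox2 and Acaa1b.

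Whether the cold response itself differed between the genotypes was tested as the interaction. It was called for 0 of 29 members by edgeR, DESeq2 and limma voom, against 0% of all genes by edgeR, and 0 members had an unadjusted p under 0.05 by each of these tools, against 2.14%, 2.11% and 5.31% of all genes. So the members called in WT and not in HIF2α AKO mice, Pex11a, Pxmp2, Pecr, Crot and Cat, and those called the other way, Pex2 and Pex6, were not shown to respond differently. The largest values, HIF2α AKO response minus WT response, were -1.23 (95% interval -3.42 to 0.97) for Acox2, -0.96 (95% interval -2.64 to 0.72) for Acaa1b and -0.71 (95% interval -1.83 to 0.41) for Cat. Without both TN WT replicate 2 and cold WT replicate 3 they were 0.22, 0.15 and 0.063.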

How the data were processed

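RNA from iWAT of 12 mice was sequenced. Per the labels and the study's methods, the authors trimmed reads with Trim Galore 0.4.4, aligned them to GRCm38 with STAR 2.6.1d, counted reads per gene with HTSeq 0.13.5 and tested with DESeq2 1.30.0. The annotation and the strand setting are not given in the sources used here. The deposited values are raw counts per gene, and the rows that name no gene, 21.9 to 27.0% of each library, were left out of totals and tests. The table held the same values as the files per sample in 12 of 12 libraries.

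Groups came from the labels. Genes passed edgeR's filterByExpr (minimum count 10, minimum total 15), which left 15306. TMM scaling and the quasi-likelihood test of edgeR 4.0.16 in R 4.3.3 were applied to all 12 libraries in 4 groups, with Benjamini-Hochberg adjustment over all genes. Log2 CPM used a prior count of 2. RPKM used the longest GENCODE M21 transcript of each gene paired with a RefSeq NM record, or the longest transcript where none was paired. The scripts were tested on simulated data. Alternatives were limma 3.58.1 (voom), DESeq2 1.42.0, other scalings and filters, the 6 libraries of a comparison alone, a replicate block, and libraries left out. The labels name separate mice without saying more, so p-values measure the spread between these samples. The members and gene lists were chosen with earlier results of these data known. All members were named with their calls, values per mouse were given for members called in either genotype, and the 3 largest differences were named in each genotype comparison. The results of 1 gene list are not reported here.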

Additional observations from a re-analysis of the deposited data

How the results depend on the processing

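The count of members called higher upon cold in WT mice was 23. It was 15 with only the 6 libraries compared, 13 without TN WT replicate 2, and 8 without both TN WT replicate 2 and cold WT replicate 3, and ranged from 13 to 25 when single libraries were left out. The HIF2α AKO count of 20 ranged from 11 to 23, and either replicate 1, cold or TN, gave the 11 when left out. The share of all genes called was not counted with fewer libraries or with the replicate block. The median of the peroxins in WT mice moved from 1.01 to 0.58 without both libraries, and that of the enzymes from 1.37 to 0.77, with a range of 0.96 to 1.56 when single libraries were left out. With the looser limits of the study's methods (p under 0.15 before adjustment, log2 fold change beyond 0.2 in size), the genotype comparisons held 1 member in cold, 2 at TN, 2 for the interaction and 1 averaged, against 8.98%, 8.63%, 8.81% and 7.99% of all genes. Over all genes, edgeR called 1 gene between the genotypes in cold, at TN and averaged and 0 for the interaction, DESeq2 called 7 in cold, 11 at TN and 12 averaged, and limma voom 2, 2 and 4. Upper quartile scaling moved the genes called lower upon cold from 870 to 2509 in WT and from 1757 to 2815 in HIF2α AKO mice, with an all-gene median of -0.169 and -0.142.

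Signs turned for small values. Pex26 in WT was -0.014 under upper quartile scaling, Abcd2 in WT was -0.078 without both libraries, and in HIF2α AKO mice single libraries left out gave Pex26 -0.095 to 0.014, with 0.00041 as the other positive value, and Acox3 -0.069 to 0.014, with 0.0055 as the other. In cold HIF2α AKO against WT, single libraries left out gave Pecr -0.69 to 0.049 and Cat -0.62 to 0.171, both highest without cold WT replicate 3, whereas Pecr was 0.048 and Cat 0.171 without both libraries, and Cat 0.0494 with limma voom. The interaction without both libraries was 0.22 for Acox2, 0.149 for Acaa1b and 0.0626 for Cat. The cause was not tested for these. Over single genes, class scores and the DR1 match, 1268 alternatives stayed the same, which for genes means direction and call. For single genes 100 lost the call, 24 gained it and 14 turned. The 1 that moved was the DR1 match with at most 1 mismatch.

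With the replicate block, 21 members were called in WT and 18 in HIF2α AKO mice, 26 averaged and 0 between genotypes. Same-numbered samples deviated together, with r above 0.1, in 5 of 18 pairs (r from -0.426 to 0.392). Differently numbered samples were not compared, so this check cannot decide whether the numbers pair the samples. A match to DR1 with at most 1 mismatch was found in 0 members against 2 with at most 2. The comparison of protein sequences and C-terminal signals was not run. With 3 mice a group and few counts for Acox2, small differences were not detectable.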

Other observations

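Markers of the other cell types in iWAT were read beside the members. Of all genes, 15.6% were called higher upon cold in each genotype, and 5.68% lower in WT and 11.5% in HIF2α AKO mice. The 6 epithelial markers summed to 200.05 CPM in TN WT replicate 3 and to between 2.95 and 10.3 CPM in the other 11 mice. The 7 macrophage markers lay between 1421 and 1626 CPM in cold HIF2α AKO mice, below the 2465 to 2643 CPM of TN HIF2α AKO mice, and 2 of 7 were called lower there, whereas 0 of 7 were called in WT mice by edgeR, with 0 at an unadjusted p under 0.05. The 5 endothelial markers summed to between 700.03 and 977 CPM and the 4 progenitor markers to between 698 and 1079 CPM over all 12 mice. The cold response of the macrophage markers did not pass the limit as an interaction of genotype and temperature in any of the 7 genes by edgeR. The median was -0.63, with 7 of 7 negative and 1 at an unadjusted p under 0.05, against 2.14% of all genes. Of the epithelial markers 1 of 6 was called lower in WT and 0 in HIF2α AKO mice by edgeR, of the endothelial ones 0 and 1 of 5 higher, and of the progenitor ones 0 of 4 in each. The 4 hepatocyte markers summed to between 4.04 and 59.8 CPM and the 2 erythroid markers in the table to between 6.07 and 57.6 CPM, with 1 of 2 hepatocyte genes tested called higher in each genotype and the 1 erythroid gene tested called higher in WT and not in HIF2α AKO mice.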
